A study of Mus musculus with 29 samples.

Results

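The 9 genes described here encode parts of antibodies and of the B cell receptor, namely Ighm, Igkc, Iglc1, Iglc2, Jchain, Cd79a, Cd79b, Ms4a1 and Mzb1. They were taken as the rows whose Ensembl ID maps to these symbols, and all 9 were found among the 25746 genes of the count tables. They were followed in bulk RNA of brain tissue from 29 mice in 8 groups, 21 days after photothrombotic stroke to the right sensorimotor cortex or without stroke. The non-stroked groups were 4 WT mice (C57BL/6), 3 Rag2-/- mice and 4 NSG mice. The stroked groups were 4 untreated WT mice, 3 Rag2-/- mice, 3 NSG mice and WT mice given tacrolimus. Of the latter, 3 received it from the day of stroke (WT-Tacr acute). The other 5 received it only from a week after stroke (WT-Tacr delayed). The mice were about 3 months old and of both sexes, and tacrolimus, a calcineurin inhibitor, was delivered by an osmotic pump under the skin. Rag2-/- mice lack a protein needed to assemble antigen receptor genes and so form no mature B or T cells. NSG mice carry the scid mutation of Prkdc and lack Il2rg on a NOD background, so that strain background and immune defect cannot be told apart. Non-stroked WT mice were the only controls for untreated, WT-Tacr acute and WT-Tacr delayed mice, and no non-stroked tacrolimus group was analysed.

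Each B cell joins variable, joining and, in heavy chains, diversity segments into 1 antigen receptor, and splices the result to a constant segment. Ighm is the constant segment of the IgM heavy chain, Igkc that of the kappa light chain, and Iglc1 and Iglc2 are those of lambda light chains. CD79A and CD79B pass the signal of the receptor into the cell, MS4A1 (CD20) is a surface protein of mature B cells, and plasma cells use the J chain and MZB1 to assemble and secrete polymeric IgM and IgA. B cells and plasma cells are rare in the healthy brain and are known to enter injured brain tissue from the blood.

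The 3 lambda constant genes are shown because their reads may be hard to assign. On GRCm38, with gene models of GENCODE M21, the first 180 aligned coding bases of each lie on the minus strand, at chr16:19061892-19062071 for Iglc1, chr16:19198673-19198852 for Iglc2 and chr16:19065502-19065681 for the related Iglc3. Capitals mark the 46 positions at which the 3 sequences are not identical.
Iglc1: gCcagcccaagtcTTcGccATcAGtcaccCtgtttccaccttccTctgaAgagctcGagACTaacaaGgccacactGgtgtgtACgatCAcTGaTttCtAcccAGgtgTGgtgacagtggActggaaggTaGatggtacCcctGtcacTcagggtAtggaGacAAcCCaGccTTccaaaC
Iglc2: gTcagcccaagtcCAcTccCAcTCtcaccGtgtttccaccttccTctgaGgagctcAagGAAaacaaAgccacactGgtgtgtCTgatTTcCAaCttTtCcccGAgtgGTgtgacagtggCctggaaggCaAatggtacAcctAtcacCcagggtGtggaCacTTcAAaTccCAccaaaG
Iglc3: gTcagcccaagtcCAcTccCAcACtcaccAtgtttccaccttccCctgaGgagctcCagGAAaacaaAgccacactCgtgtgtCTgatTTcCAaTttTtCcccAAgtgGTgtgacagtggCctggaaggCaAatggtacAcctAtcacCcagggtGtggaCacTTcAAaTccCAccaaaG
Over 314 aligned coding bases Iglc2 and Iglc3 differed at 11 positions (96.5% identity) and shared an unbroken run of 79 bases. Iglc1 was 72.9% identical to Iglc2, with a longest shared run of 19 bases. Of the 266 stretches of 50 coding bases in Iglc2, 38 (14.3%) also occur in Iglc3. Counts of Iglc2 and Iglc3 are therefore in part uncertain as to which of the pair they belong to. Iglc1 shares no run of 50 bases with either.

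The remaining members lie on other chromosomes, with Ighm at chr12:113418558-113422730, Igkc at chr6:70726435-70726966, Jchain at chr5:88519809-88527891, Cd79a at chr7:24897381-24902197, Cd79b at chr11:106311341-106314762 and Ms4a1 at chr19:11249675-11266241. Igkc overlaps a long non-coding RNA gene on its own strand, Iglc1 and Ms4a1 each overlap an antisense gene, Iglc2 overlaps a joining segment, and Mzb1 overlaps Spata24 on the same strand. It is not stated whether the counting used strand, so reads of such neighbours may be included. Total counts ranged from 17789044 to 43403413 per library, with a median of 37223696 in the 20 libraries whose label begins with Imm2 and 23155303 in the 9 that begin with TF, called cohorts here. The labels put every non-stroked, Rag2-/- and NSG mouse in Imm2 and every WT-Tacr delayed mouse in TF. Every comparison of delayed with non-stroked mice is thus also a comparison between cohorts. A limit of 3 counts in a library corresponded to 0.0730 to 0.149 CPM, the count scaled to a common library size, with library sizes normalised by the trimmed mean of M values, and covers counting error only.

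Levels differed between the 9 genes by orders of magnitude. Ighm and Jchain had more than 3 counts in all 29 libraries, Cd79a in 26, Cd79b in 19, Mzb1 in 18 and Igkc in 14. Iglc1 exceeded 3 counts in 7 libraries, Iglc2 in 3 and Ms4a1 in 1. Per kilobase of exon, the level in stroked WT mice was 19.9 ± 7.51 CPM for Ighm (SD, n = 4), 3.59 ± 3.11 for Igkc and 0.328 ± 0.0928 for Jchain. On the same scale Iglc1 stood at 0.224 ± 0.160, Cd79b at 0.197 ± 0.0393, Cd79a at 0.130 ± 0.0949 and Mzb1 at 0.106 ± 0.0584, so that the neighbours from Jchain to Mzb1 overlapped within their spread. Iglc2, at 0.0593 ± 0.0596, and Ms4a1, at 0.00596 ± 0.00939, were lowest. In the bulk tissue, fewer cells of a type and less RNA per cell cannot be told apart.

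**Figure D1:**
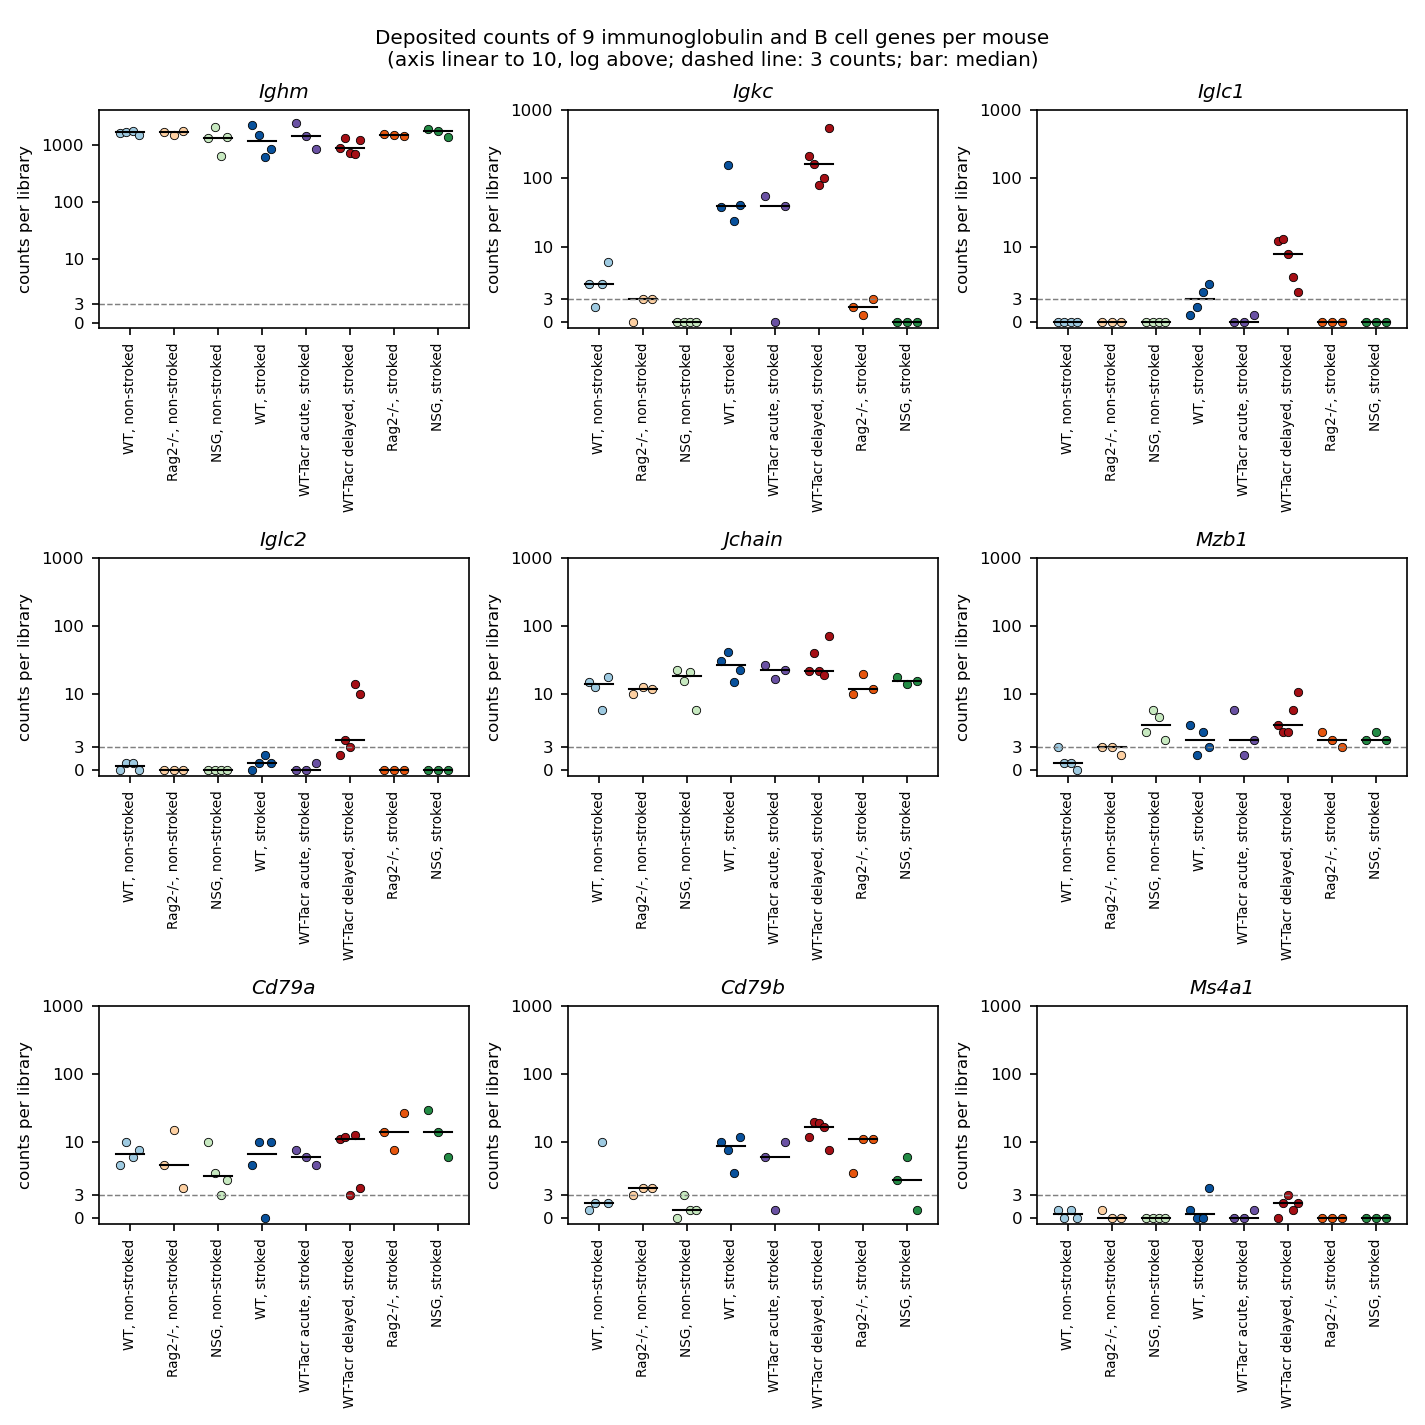
Deposited counts per library (vertical axis, linear to 10 and logarithmic above) of the 9 genes in the 8 groups, with 1 point per mouse, a bar at the group median and a dashed line at 3 counts. Ighm lies between 622 and 2359 counts in every mouse, whereas Igkc lies at 24 or more in all stroked WT and WT-Tacr mice but 1, and at 3 or fewer in all Rag2-/- and NSG mice.

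Igkc, the kappa light chain through which most mouse antibodies are built, was higher after stroke in untreated WT mice and in WT-Tacr delayed mice. Delayed mice and their controls came from different cohorts. The 4 non-stroked WT mice had 5, 2, 5 and 8 counts, and the 4 stroked WT mice had 38, 158, 24 and 41. Every stroked mouse was above every non-stroked one, and 1 stroked mouse stood far above the other three. In mean level this was 0.137 ± 0.0677 CPM (SD, n = 4) against 1.91 ± 1.66 CPM (n = 4), a 13.9-fold difference. The log2 fold change in edgeR's quasi-likelihood test was 3.78 ± 0.89 (SE, adjusted p = 0.00432). A gene was called at a Benjamini-Hochberg adjusted p below 0.05 over 17031 genes and an absolute log2 fold change above 1. By this rule 3 of the 6 members tested rose after stroke in WT mice, where 7.3% of all genes were called in either direction. The other 3 members, Iglc2, Ms4a1 and Mzb1, had too few counts to pass the filter. Igkc and Iglc1 could pass it only through the groups in which they were high, so the count of members called is a description.

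Both tacrolimus groups varied widely in Igkc. WT-Tacr acute mice had 56, 0 and 39 counts, and WT-Tacr delayed mice had 210, 165, 80, 101 and 548. The acute group thus held 1 mouse with no count and 2 within the range of untreated stroked mice, while all 5 delayed mice exceeded all non-stroked WT mice and all acute mice. Against the shared non-stroked WT controls, the log2 fold change was 2.81 ± 0.96 in acute mice (adjusted p = 0.0694) and, for a 70.9-fold higher mean CPM, 6.11 ± 0.89 in delayed mice (adjusted p = 1.44e-05). All delayed mice were in TF and all of these controls in Imm2, so cohort cannot be told apart from stroke and drug in the delayed comparison. In acute mice 0 of 6 members were called, against 2.58% of all genes. In delayed mice 4 of 6 were called, all higher, against 15.5%, and 2 with the cohort as a covariate. At an unadjusted p below 0.05 the acute comparison held 4701 of 17031 genes, and DESeq2 also called 0 members.

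The acute mouse without Igkc counts (replicate 2) also had 2 counts of Cd22, as against 110 to 234 in untreated stroked WT mice, and 249 CPM of summed microglia and macrophage markers, as against 362 to 460 CPM. Acute replicate 1, with 56 Igkc counts, was also below those ranges, with 32 counts of Cd22 and 237 CPM of the markers. Without replicate 2, Igkc was called in acute mice (log2 fold change 3.33, adjusted p = 0.0308). In delayed mice the highest mouse, with 548 counts, did not decide the call: leaving out each mouse in turn gave log2 fold changes between 5.26 and 6.42.

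Direct comparison of the stroked groups gave the same order of values but few calls. Delayed mice averaged 9.74 ± 9.93 CPM of Igkc (SD, n = 5), acute mice 0.957 ± 0.831 CPM (n = 3) and untreated stroked mice 1.91 ± 1.66 CPM (n = 4). Delayed exceeded acute mice by a log2 fold change of 3.30 ± 0.81 (adjusted p = 0.0123), but without acute replicate 1 or replicate 2 the adjusted p was 0.102 or 0.0955. In that comparison Igkc, Iglc1 and Cd79b were called, 3 of 6 members against 5.75% of all genes. Fitted on the samples of both groups alone, 0 members and 0 of all genes were called. Against untreated stroke, Igkc stood at -0.97 ± 0.78 in acute and 2.33 ± 0.67 in delayed mice, with adjusted p = 0.626 and 0.152. Neither of these comparisons called any of the 17031 genes (0%), with 2168 and 3455 genes at an unadjusted p below 0.05. The delayed group came from the TF cohort alone, so part of its comparison with the mixed untreated group cannot be told apart from cohort.

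Mice without mature B and T cells held almost no Igkc. The 3 stroked Rag2-/- mice had 2, 1 and 3 counts, the 3 non-stroked Rag2-/- mice 0, 3 and 3, and the 3 stroked and 4 non-stroked NSG mice had 0 in every library. All 13 lay at or below the limit of 3 counts, as did 1 of the non-stroked WT mice. The stroked WT mean was at least 23.7-fold higher than a level of 3 counts per library in stroked NSG mice. Pooled counts of stroked WT mice exceeded those of stroked Rag2-/- mice 34.3-fold, with a 95% exact counting interval from 15.6 to 94.3. Such an interval treats the reads of a group as 1 pool, so it covers counting error only and leaves out the spread between mice.

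In edgeR, stroked NSG mice differed from stroked WT mice in 2 of 6 members, Igkc (adjusted p = 0.00172) and Iglc1 (adjusted p = 0.0322), both lower, where 3.26% of all genes were called; the call of Iglc1 was lost with DESeq2 (adjusted p = 0.0527), with the cohort as a covariate (adjusted p = 0.129) and in 4 of 7 edgeR fits without 1 mouse (adjusted p from 0.0544 to 0.0896). In stroked Rag2-/- mice, with Igkc below the limit, the unadjusted edgeR p was 0.000331. After adjustment p was 0.707. In that comparison 1 gene in all (0.00587%) was called, and 1196 had an unadjusted p below 0.05. The difference in stroke response between Rag2-/- and WT mice was not called for Igkc (adjusted p = 0.95), with 0 members and 0% of all genes called and 713 genes at an unadjusted p below 0.05. For NSG mice, with no Igkc count in either group, this difference could not be estimated, and 0 of 6 members were called against 0.0117% of all genes.

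All 12 stroked mice that can form mature B and T cells were set against the 6 that cannot. An exact two-sided permutation test of log2(CPM + 0.5) over 18564 regroupings called Igkc and Jchain. Igkc was higher by 2.58 on that scale (permutation p = 0.00145, adjusted p = 0.0450 over 22092 genes) and Jchain by 0.70 (p = 0.00102, adjusted p = 0.0421). These were 2 of 9 members, where 4.56% of all genes were called at an adjusted p below 0.05. The test pooled 3 treatments and ignored cohort, although all 6 deficient mice were in Imm2 and 9 of the 12 competent mice in TF. Within Imm2, the 3 competent mice had 38, 158 and 56 counts of Igkc and 31, 42 and 27 of Jchain, against at most 3 and 20 in the deficient mice. In all, 11 of the 12 competent mice were above all 6 deficient mice for Igkc, the exception being WT-Tacr acute replicate 2. Without single mice the adjusted p of Igkc or Jchain passed 0.05 in most cases, and by rank sums the adjusted p of Igkc was 0.0571. In non-stroked mice, 4 against 7, the same test called 0 members and 0% of all genes. The smallest p it allows is 0.00303, and 2496 genes had an unadjusted p below 0.05, among them Igkc (p = 0.0121, adjusted p = 0.332, exact permutation).

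The lambda constant genes had far lower counts than Igkc. Iglc1 was at 0 in all 11 non-stroked mice and in all 6 stroked Rag2-/- and NSG mice. Untreated stroked WT mice had 1, 2, 4 and 5 counts, acute mice 0, 0 and 1, and delayed mice 12, 13, 9, 6 and 4. Delayed mice overlapped untreated stroked mice in counts, yet all of them passed the limit of 3 counts, which 2 of 4 untreated and 0 of 3 acute mice did.

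Iglc1 was called higher in untreated stroke (adjusted p = 0.0112), in delayed mice (adjusted p = 8.67e-05) and in delayed against acute mice (adjusted p = 0.0103), with the acute group below the limit of 3 counts. Against 3 counts per library in non-stroked WT mice, its mean was at least 4.22-fold higher in delayed mice. In untreated stroke its mean of 0.102 CPM lay near the limit itself, so no least fold is given. A limit of 3 counts averaged 0.0823 CPM in non-stroked and 0.0953 CPM in stroked WT libraries. With the cohort as a covariate the edgeR adjusted p was 0.0830 in untreated stroke and 0.0570 in delayed mice. Iglc1 passed the filter only through the groups in which it was high, so its calls, also that in NSG mice, are a description. Fitted without a filter, the 3 calls of this paragraph had edgeR adjusted p of 0.0102, 7.74e-05 and 0.0113, in the same order.

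Iglc2 was found at 2, 4, 3, 14 and 10 counts in delayed mice and at 2 or fewer in all other mice, which leaves only 3 mice, all delayed, above the limit of 3 counts. The filter removed it, and in a fit of all 22092 genes without a filter it was called in delayed mice (adjusted p = 0.00203). Non-stroked WT mice had 0, 1, 1 and 0 counts, below the limit. Pooled counts were 19.6-fold higher in delayed mice, with a 95% exact counting interval from 5.01 to 168 that leaves out the spread between mice. Iglc3, which shares the long run shown above with Iglc2, was distributed differently, with 12, 12, 1 and 9 counts in untreated stroked mice, 5, 0 and 5 in acute mice and 2, 1, 2, 5 and 5 in delayed mice. It was at 0 in every Rag2-/- and NSG mouse. Iglc3 was called in untreated stroke (adjusted p = 0.00633) and in delayed mice (adjusted p = 0.0246).

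Jchain, the joining chain of polymeric IgA and IgM, was present in every library and rose less than the light chains. Non-stroked WT mice had 15, 13, 8 and 18 counts, stroked WT mice 31, 42, 15 and 23, acute mice 27, 17 and 23, and delayed mice 22, 41, 22, 19 and 72. In counts the lowest stroked WT mouse and the lowest acute mouse overlapped the non-stroked WT mice, and all delayed mice lay above them. Relative to library size the untreated groups did not overlap. In CPM, non-stroked WT mice had 0.372 ± 0.121 (SD, n = 4), stroked WT mice 0.826 ± 0.234 (n = 4) and delayed mice 1.5 ± 1.17 (n = 5).

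The log2 fold change of Jchain after stroke was 1.16 ± 0.41 in WT (adjusted p = 0.0368), 1.0 ± 0.44 in acute (adjusted p = 0.140) and 1.99 ± 0.39 in delayed mice (adjusted p = 0.000169). The WT call was lost in 5 of the 8 fits without 1 mouse (adjusted p from 0.0567 to 0.109), with log2 fold changes between 0.94 and 1.32 over the 8, and with the cohort as a covariate (adjusted p = 0.0693). In Rag2-/- mice Jchain had 10, 13 and 12 counts without and 10, 20 and 12 with stroke, and in NSG mice 23, 16, 21 and 8 without and 18, 14 and 16 with stroke. Counts of both strains overlapped those of non-stroked WT mice, with log2 fold changes after stroke of 0.20 ± 0.50 (adjusted p = 0.881) and -0.16 ± 0.45 (adjusted p = 0.822).

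**Figure D2:**
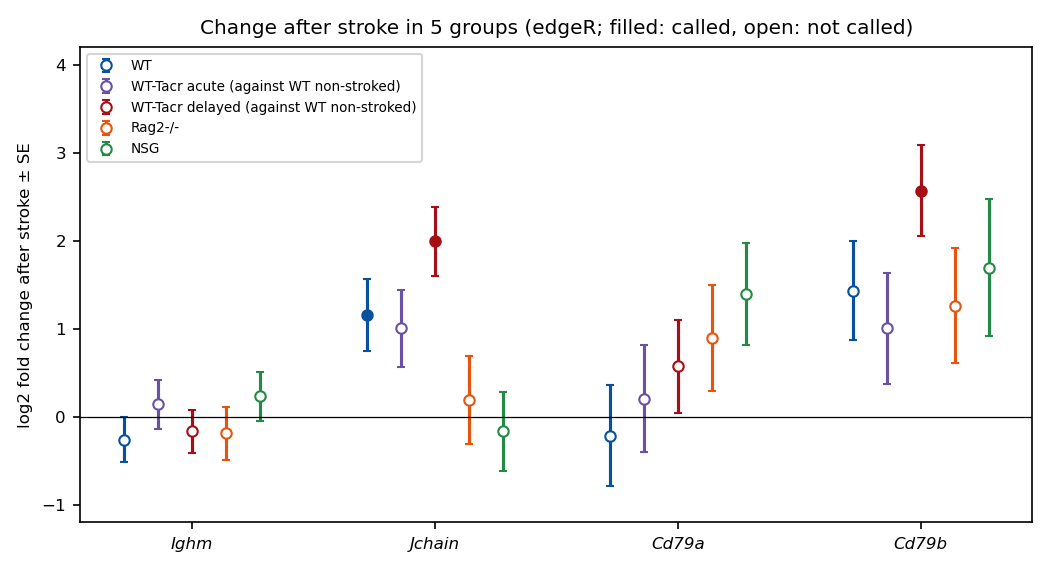
Log2 fold change after stroke with its SE (vertical axis, edgeR) for Ighm, Jchain, Cd79a and Cd79b in WT, WT-Tacr acute, WT-Tacr delayed, Rag2-/- and NSG mice, each against non-stroked mice of the strain; filled points were called. Jchain is filled in WT and delayed mice, Cd79b in delayed mice, and Ighm and Cd79a are open in all 5 comparisons.

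Ighm, the IgM heavy chain constant segment, did not follow the light chains. Its counts were 1639, 1671, 1747 and 1504 in non-stroked WT mice, 1647, 1491 and 1759 in non-stroked Rag2-/- mice and 1322, 2085, 626 and 1356 in non-stroked NSG mice. After stroke they were 2203, 1504, 622 and 833 in WT mice, 1567, 1477 and 1432 in Rag2-/- mice and 1924, 1760 and 1345 in NSG mice. Acute mice had 2359, 1411 and 847 counts of Ighm, and delayed mice 893, 1335, 725, 695 and 1227. The counts of mice that form no B cells lay among those of WT mice, and the TF libraries, which are smaller, held most of the low counts.

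The mean level of Ighm was 44.9 ± 2.46 CPM in non-stroked WT mice (SD, n = 4), 49.3 ± 5.75 CPM in non-stroked Rag2-/- mice (n = 3) and 37.8 ± 14.7 CPM in non-stroked NSG mice (n = 4). Its log2 fold change was 0.13 ± 0.28 for Rag2-/- (adjusted p = 1) and -0.25 ± 0.26 for NSG against WT (adjusted p = 0.639). No member was called between non-stroked strains, with 0.00587% of all genes called for Rag2-/- and 3.36% for NSG mice and 349 and 3894 genes at an unadjusted p below 0.05. DESeq2 called 0 members for Rag2-/- and 1, Igkc (adjusted p = 0.0122), for NSG mice.

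After stroke the log2 fold change of Ighm was -0.26 ± 0.26 in WT, 0.14 ± 0.28 in acute and -0.17 ± 0.25 in delayed mice, and -0.19 ± 0.30 in Rag2-/- and 0.23 ± 0.28 in NSG mice, with adjusted p from 0.481 to 0.783. The WT value turned to 0.01 with the cohort as a covariate and to 0.12 in the Imm2 cohort alone. The 2 lower stroked WT mice, at 27.0 and 25.4 CPM against 55.6 and 41.8, were those of the TF cohort. Across the 29 mice Ighm did not track Igkc (Pearson r = -0.11), a description over points that share libraries and cohorts.

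2 further heavy chain constant genes were present at similar counts in all strains. Ighg2c had 99 to 119 counts in non-stroked WT mice, 114 to 149 in non-stroked Rag2-/- mice and 82 to 151 in non-stroked NSG mice, and Ighd had 9 to 17, 12 to 14 and 11 to 20. None of the 5 stroke comparisons called either gene. Igha, the constant segment of IgA, behaved otherwise, with 1, 0, 1 and 2 counts in non-stroked WT mice and 27, 95, 12 and 59 in stroked WT mice. Acute mice had 23, 1 and 30 counts of Igha, delayed mice 18, 147, 51, 16 and 62, and all 13 Rag2-/- and NSG mice 0 except 1 stroked NSG mouse with 1.

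The stroked groups that can form B cells thus lay above every other mouse for Igha, again apart from acute replicate 2. Igha was called in WT (adjusted p = 0.000660), acute (adjusted p = 0.0273) and delayed mice (adjusted p = 4.38e-05). Non-stroked WT mice lay below the limit for Igha. Pooled counts exceeded theirs 53.6-fold in stroked WT mice, with an exact counting interval from 20.6 to 199. In delayed mice they did so 87.2-fold, with an interval from 33.7 to 322. These intervals leave out the spread between mice. Of the 8 other constant genes listed, 5 passed the filter, Igha and Iglc3 only through WT groups in which they were high. In untreated stroke 2 rose (Igha and Iglc3), in acute mice 1 (Igha) and in delayed mice 3 (Igha, Ighg2b and Iglc3). In Rag2-/- and NSG mice 0 rose. Over all genes, the shares called were 7.3% in WT, 2.58% in acute, 15.5% in delayed, 4.33% in Rag2-/- and 5.48% in NSG mice. Nothing is read from the 0 in deficient strains. The median log2 fold change of the 5 constant genes tested was 0.17, 2.60 and 2.89 in the 3 WT comparisons. Medians of all genes there lay between -0.0004 and 0.01. No median is given for deficient strains, where Igha and Iglc3 had at most 1 count. Ighg3 stood out in 2 delayed mice, with 124 and 39 counts as against 2 to 4 in the other three, and did not pass the filter; it was singled out after its values were seen.

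Igha was also the gene most like Igkc across the 29 mice, with a Pearson r of log2 CPM of 0.93 among 17025 genes that are not members, followed by Ms4a4b (r = 0.89) and Cxcr6 (r = 0.89), both known from lymphocytes. For Jchain the nearest genes were Igha (r = 0.82), Col6a1 (r = 0.81) and Trafd1 (r = 0.80), and for Iglc1 they were Ms4a4b (r = 0.87), the T cell receptor constant gene Trbc1 (r = 0.86) and Lipo3 (r = 0.85). Among the members, Igkc tracked Iglc1 (r = 0.85), Jchain (r = 0.80) and Cd79b (r = 0.77). These values describe points that share group, library and cohort.

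**Figure D3:**
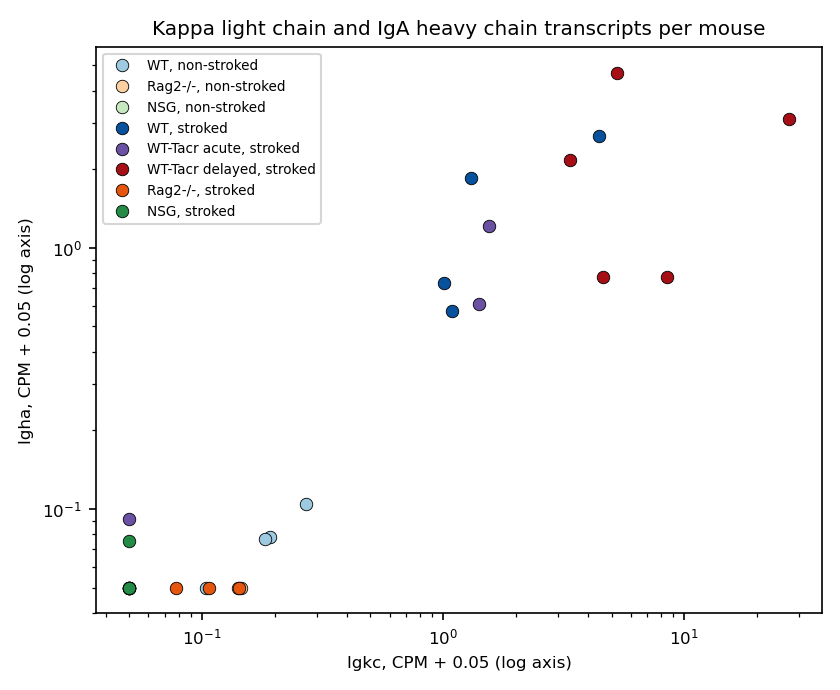
Igkc (horizontal axis) against Igha (vertical axis) in CPM + 0.05, both axes logarithmic, with 1 point per mouse coloured by group. 11 of the 12 stroked WT and WT-Tacr mice form the upper right group, and all Rag2-/- and NSG mice, all non-stroked WT mice and WT-Tacr acute replicate 2 lie in the lower left corner, several on top of each other.

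T cell genes were followed beside Igkc. The 10 T cell markers summed to 17.98 to 30.3 CPM in stroked WT mice, 12.1 to 25.5 in stroked Rag2-/- mice and 6.94 to 33.8 in stroked NSG mice, ranges that overlapped. Trbc2 alone had 151 to 503 counts in stroked NSG and 98 to 332 in stroked WT mice. Of the 10, Cd3d, Cd3g, Cd8a, Cd8b1 and Trbc1 were at 0 in all stroked NSG mice, and Cd3d in all stroked Rag2-/- mice, while none was at 0 throughout the stroked WT group. Summed over Cd3d, Cd3e, Cd3g, Cd8a and Trbc1, a set picked after the values were seen, stroked WT mice had 21 to 90 counts, acute mice 4 to 29, delayed mice 25 to 50, and stroked Rag2-/- and NSG mice 2 to 6 and 0 to 1. Meningeal fibroblasts are cells of the brain's coverings. Of 4 markers, 3 (Lum, Dcn and Col1a1) were called higher after stroke in WT, delayed, Rag2-/- and NSG mice and 0 in acute mice. The shares of all genes called after stroke were 7.3% in WT, 2.58% in acute, 15.5% in delayed, 4.33% in Rag2-/- and 5.48% in NSG mice. The fibroblast markers summed to 183 to 319 CPM in stroked WT, 68.4 to 218 in acute and 205 to 678 in delayed mice. They summed to 199 to 225 in stroked Rag2-/- and 154 to 702 in stroked NSG mice, against 71.7 to 149 in non-stroked mice. The 5 choroid plexus markers had a median sum of 816 CPM in delayed, 8.20 in acute and 85.8 in untreated stroked WT mice, with 6.20 to 809 CPM across non-stroked WT mice. Of these markers 2, Folr1 and Kl, were called higher in delayed against acute mice, where 5.75% of all genes were called. Aqp1 was called higher in delayed mice after stroke. Of the neutrophil markers, S100a8 and S100a9 rose in WT and delayed mice and S100a8 in NSG mice. Of 4 cortical neuron markers 1 fell in WT and 3 in delayed mice, beside the shares of all genes given above. The part of T cells, meningeal tissue, choroid plexus, neutrophils and neurons in the Igkc values was not tested.

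Rearranged receptors leave counts on variable segments, and 218 immunoglobulin variable genes were listed in the tables. Their summed counts were 13, 10, 4 and 12 in non-stroked WT mice, 14, 52, 14 and 34 in stroked WT mice, 26, 4 and 22 in acute mice and 97, 69, 36, 44 and 306 in delayed mice. All stroked untreated WT mice and all delayed mice exceeded all non-stroked mice, and acute replicate 2 again lay at the non-stroked level. Rag2-/- and NSG mice had 1 to 7 counts each, 57 in all over 13 mice, on 9 variable genes led by Igkv8-19 with 25 and Igkv6-20 with 11.

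The number of different variable genes with a count rose with the sum, from 4 to 8 in non-stroked WT mice to 10 to 21 in stroked WT mice, 4 to 17 in acute mice and 18 to 42 in delayed mice, against 1 to 5 in deficient mice. The leading gene differed between mice. In WT mouse replicate 2, with 158 Igkc counts, it was Ighv8-12 with 11 counts, and in delayed replicate 1 it was Ighv1-81 with 16. Delayed replicate 5, with 548 Igkc counts, had 57 counts of Igkv3-5, 41 of Ighv1-9 and 30 of Igkv8-30. Iglv1, the variable gene of most mouse lambda chains, led in acute replicate 1 with 8 counts and was among the leading genes of delayed replicates 1 and 3 with 9 and 4. Variable genes were added after the data were seen and are given without a test.

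**Figure D4:**
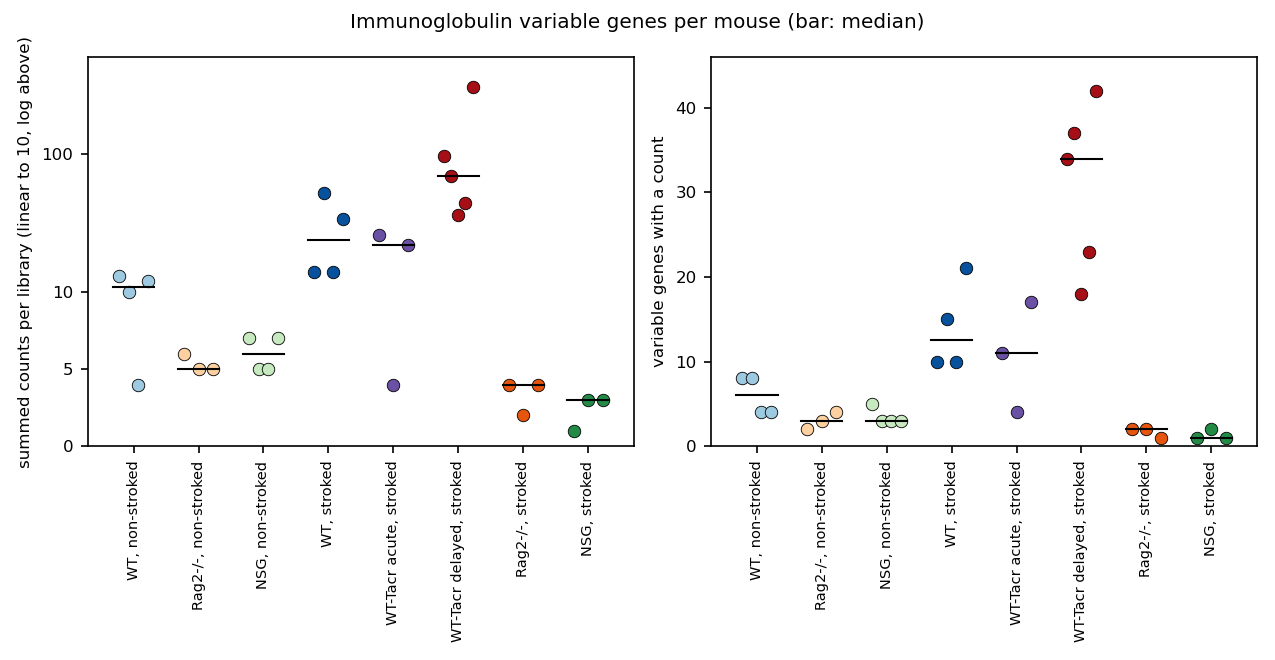
Summed counts of 218 immunoglobulin variable genes (left, linear to 10 and logarithmic above) and the number of them with a count (right) per mouse, with a bar at the group median. Delayed mice had 36 to 306 counts on 18 to 42 genes, stroked WT mice 14 to 52 counts on 10 to 21 genes, and Rag2-/- and NSG mice 1 to 7 counts on 1 to 5 genes.

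The signalling partners of the receptor, CD79A and CD79B, did not behave as a pair. Cd79b had 1, 2, 10 and 2 counts in non-stroked WT mice, 10, 9, 6 and 12 in stroked WT mice, 8, 1 and 10 in acute mice and 12, 20, 19, 17 and 9 in delayed mice. A single non-stroked mouse, with 10 counts, overlapped the stroked ones. The log2 fold change of Cd79b was 1.43 ± 0.56 in WT (adjusted p = 0.0589) and 2.57 ± 0.52 in delayed mice (adjusted p = 0.000219), and without that non-stroked mouse (replicate 4) the WT value was 2.52 (adjusted p = 0.00588). With the cohort as a covariate the adjusted p in delayed mice was 0.0596.

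Cd79b was also counted in mice without B cells, with 3, 4 and 4 counts without and 6, 11 and 11 with stroke in Rag2-/- mice. NSG mice had 0, 3, 1 and 1 counts without stroke and 5, 8 and 1 with it. The Rag2-/- groups did not overlap and the NSG groups did. Their log2 fold changes after stroke were 1.26 ± 0.65 (adjusted p = 0.262) and 1.69 ± 0.78 (adjusted p = 0.118). Set against WT mice, Rag2-/- mice stood at 0.11 ± 0.69 without and -0.06 ± 0.54 with stroke. NSG mice stood lower, at -1.44 ± 0.76 without (edgeR adjusted p = 0.265) and -1.18 ± 0.59 with stroke (edgeR adjusted p = 0.188). None of these differences from WT mice was called. Neither strain had a called member after stroke, against 4.33% of all genes in Rag2-/- and 5.48% in NSG mice, with 3691 and 6116 genes at an unadjusted p below 0.05 and 0 members called by DESeq2 in either. Without NSG replicate 3 of the stroked group, Cd79b (2.08, adjusted p = 0.0482) and Cd79a (1.66, adjusted p = 0.0463) were called in NSG mice. Genes most like Cd79b over the 29 mice were Hp (r = 0.88), Batf (r = 0.88) and H2-Ob (r = 0.87).

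Cd79a showed no rise in WT mice, with 7, 10, 8 and 9 counts without stroke and 7, 10, 0 and 10 with stroke (log2 fold change -0.22 ± 0.57, adjusted p = 0.808). Its highest counts were in mice that form no B cells, with 14, 9 and 27 in stroked Rag2-/- mice and 30, 14 and 8 in stroked NSG mice. Those groups overlapped their controls, at 7, 15 and 4 and at 10, 6, 3 and 5, and the log2 fold changes were 0.90 ± 0.60 (adjusted p = 0.416) and 1.39 ± 0.58 (adjusted p = 0.0820). Cd79a did not track Igkc over the 29 mice (r = -0.02), and its nearest genes were Exoc3l (r = 0.73), Lrrc39 (r = 0.61) and Gm43628 (r = 0.56).

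Ms4a1, encoding CD20, was near the detection limit throughout. It was found at 1, 0, 0 and 4 counts in stroked WT mice, 0, 0 and 1 in acute mice, 0, 2, 3, 1 and 2 in delayed mice, and at 1 or 0 in all other mice, with 0 in every NSG mouse. Only 1 of 29 mice exceeded 3 counts, so a difference between groups was not detectable at this depth.

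Mzb1, a chaperone of the endoplasmic reticulum in plasma cells, had 3, 1, 1 and 0 counts in non-stroked and 6, 2, 5 and 3 in stroked WT mice, 8, 2 and 4 in acute mice and 6, 5, 5, 8 and 11 in delayed mice. It was also counted in NSG mice, at 5, 8, 7 and 4 without and 4, 5 and 4 with stroke, above all non-stroked WT mice, and in Rag2-/- mice at 3, 3 and 2 and at 5, 4 and 3. Without the filter, it was called in untreated stroke (log2 fold change 1.75 ± 0.60, adjusted p = 0.0416), in delayed mice (2.96 ± 0.54, adjusted p = 8.60e-05) and in non-stroked NSG against WT mice (2.18 ± 0.57, adjusted p = 0.0165). Reads of the overlapping Spata24 may be included in these few counts.

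Genes that act with the B cell receptor included some that were called after stroke in every strain. Of 15 co-receptor and signalling genes, 13 were tested; 7 rose in WT, 3 in acute, 8 in delayed, 6 in Rag2-/- and 8 in NSG mice, and none fell. Over all genes, the shares called in these 5 comparisons were 7.3%, 2.58%, 15.5%, 4.33% and 5.48%. Their median log2 fold changes were 1.03, 0.52, 1.41, 1.08 and 1.10, beside medians of all genes between -0.003 and 0.03. Cd22, an inhibitory co-receptor, had 168, 110, 139 and 234 counts in stroked WT, 185, 170 and 91 in stroked Rag2-/- and 110, 430 and 118 in stroked NSG mice, where non-stroked mice of all strains had 0 to 11. Stroked groups of the 3 strains overlapped for Cd22 and lay above all non-stroked mice (adjusted p = 6.09e-05, 0.00166 and 4.46e-05). Cd37, a tetraspanin of leukocytes, Plcg2, a phospholipase, and Lyn, a kinase, rose by 1.56 ± 0.22, 1.03 ± 0.15 and 1.47 ± 0.24 in WT mice and were called in Rag2-/- and NSG mice too. Several of these genes are also used by microglia and other myeloid cells, and the 8 microglia and macrophage markers summed to 187 to 282 CPM in non-stroked mice of all strains and to 346 to 509 in stroked WT, Rag2-/- and NSG mice; their part in the result was not tested.

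Transcription factors of the B lineage were split. Of 11 tested, 3 rose and 1 fell in WT, none moved in acute, 5 rose and 1 fell in delayed, 1 rose in Rag2-/- and 2 in NSG mice, with medians from 0.25 to 0.58 beside -0.003 to 0.03 over all genes. The shares of all genes called were again 7.3%, 2.58%, 15.5%, 4.33% and 5.48%, and nothing is read from the counts near those shares. Irf8, which also acts in myeloid cells, rose by 1.64 ± 0.27 in WT mice, 1.56 ± 0.31 in Rag2-/- mice and 1.64 ± 0.28 in NSG mice. Ikzf3, a lymphocyte factor with 0 to 7 counts in non-stroked and 11 to 27 in stroked WT mice, rose in WT (3.05 ± 0.73, adjusted p = 0.00380) and delayed mice (3.51 ± 0.71) and had values of 0.61 ± 0.93 in Rag2-/- and -1.17 ± 0.80 in NSG mice; in stroked NSG against stroked WT mice it was lower by a log2 fold change of -2.41 ± 0.76 (adjusted p = 0.0369). The fall of Pax5 rested on 1 non-stroked WT mouse with 132 counts, where the other three had 5 to 10 and the stroked WT mice 2 to 7.

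Of 11 plasma cell genes, 10 were tested; 5 rose in WT, 2 in acute, 5 in delayed, 4 in Rag2-/- and 3 in NSG mice, and none fell, with medians of 0.86, 0.45, 0.96, 0.60 and 0.58 beside -0.003 to 0.03 over all genes, of which 7.3%, 2.58%, 15.5%, 4.33% and 5.48% were called. Slamf7, a surface receptor of plasma cells and other leukocytes, was near the limit in non-stroked mice, with 0 to 1 counts in WT, 0 to 4 in Rag2-/- and 2 to 5 in NSG mice, and had 36 to 67, 40 to 49 and 9 to 39 counts in the stroked mice of these strains (adjusted p = 7.94e-05, 0.00402 and 0.0360). Sdc1, encoding the plasma cell surface protein CD138, rose by 2.15 ± 0.39, 1.5 ± 0.45 and 1.37 ± 0.39. Tnfrsf13b, a receptor for B cell survival factors, rose in WT (1.08 ± 0.23, adjusted p = 0.00168) and delayed mice (1.22 ± 0.23) and did not pass the test in Rag2-/- (0.55 ± 0.27, adjusted p = 0.235) or NSG mice (0.29 ± 0.24, adjusted p = 0.405). The differences between strains in these responses were not called in any gene of this list. Over all genes, 0% were called for Rag2-/- and 0.0117% for NSG relative to WT mice, so nothing is read from this.

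Among 13 genes of B cell recruitment and survival, 8 were tested; 2 rose in WT, 1 in acute, 4 in delayed, 1 in Rag2-/- and 2 in NSG mice, where 7.3%, 2.58%, 15.5%, 4.33% and 5.48% of all genes were called. Il21r, the interleukin-21 receptor chain, was called in all 5 comparisons, at 1.51 ± 0.28 in WT mice, 1.06 ± 0.32 in Rag2-/- mice and 1.5 ± 0.29 in NSG mice. Ccr7, a homing receptor of lymphocytes and dendritic cells, rose in WT (2.30 ± 0.63, adjusted p = 0.00979) and delayed mice (3.37 ± 0.60). The medians of the list were 0.45, 0.10, 0.96, 0.94 and 1.21, beside -0.003 to 0.03 over all genes. Of 7 genes of the pre-B receptor and of receptor gene assembly, 1 passed the filter and was not called in any comparison.

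The labels of deficiency were checked against these genes. Rag2 itself had 0 counts in 28 of 29 mice and 2 in 1 stroked WT mouse, so its row checks no genotype. Il2rg, which NSG mice lack as a functional gene, had 31 to 37 counts in stroked NSG mice and 58 to 137 in stroked WT mice, and 22 to 36 and 27 to 32 without stroke. Among the B cell markers, Blk was at 0 in all mice of both NSG groups, Cxcr5 in the stroked and Fcer2a in the non-stroked one, while the summed levels of the list overlapped, at 8.02 to 15.6 CPM in stroked NSG and 7.89 to 14.4 CPM in stroked WT mice. No plasma cell marker was at 0 throughout a group. Plasma cell markers summed to 57.2 to 74.7 CPM in stroked NSG and 59.6 to 88.3 CPM in stroked WT mice.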

How the data were processed

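Cortex RNA of 29 mice was sequenced by the authors from polyA-selected, stranded libraries. The deposited values are raw counts of reads per Ensembl gene, 1 table per mouse; neither the aligner, the read length nor the strand setting of the counting is given in the sources used here. Groups, replicate numbers and the cohort prefix were read from the sample labels. In 2 samples the mouse number in the label and in the file's name differed, and the label was used. Gene symbols, positions and exon lengths came from GENCODE M21 (GRCm38), where 25635 of 25746 IDs were found and 111 were not; 22092 genes had a count in at least 1 library. No 2 libraries were identical.

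Counts were fitted with edgeR 4.0.16 in R 4.3.3 (quasi-likelihood test, TMM normalisation, filterByExpr by group) in 1 model of 8 groups and 17031 genes, of which 6 were members. SEs were obtained as |log2 fold change| / sqrt(F). Adjusted p are Benjamini-Hochberg values over all genes tested. Exact permutation tests (Python 3.11.15, scipy 1.17.1) used log2(CPM + 0.5) over 22092 genes. The scripts were tested on simulated data. The genes named were the members, up to 4 genes of each list with the smallest p, and the 3 genes most like each tested member by Pearson r of log2 CPM with a prior count of 2. Members and lists were chosen with earlier results of these data known. Labels do not say whether mice of a group shared a litter or cage, so p-values measure the spread between these mice. Control tissue is called non-stroked here: the methods speak of the contralesional side and the labels of control mice.

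Alternatives were RLE normalisation, no filter, a mean of at least 1 CPM, DESeq2 1.42.0, a covariate for cohort, fits restricted to 1 cohort or to the groups compared, a replicate block, pseudocounts of 1 and 0.1, rank sums, Rag2-/- mice alone as the deficient group, and leaving out each mouse. Lambda sequences came from the GENCODE transcripts and were aligned with mafft.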

Additional observations from a re-analysis of the deposited data

Results flagged for a closer look

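Of 25 combinations of gene and group with 4 or 5 mice and more than 3 counts in some mouse, 5 held a mouse far from the others by Dixon's criterion, which chance gives in about 1 group in 20. Igkc reached 4.39 CPM in stroked WT replicate 2 and 27.2 CPM in WT-Tacr delayed replicate 5, and Jchain reached 3.57 CPM in the same delayed mouse. Cd79b was at 0.265 CPM in non-stroked WT replicate 4 and at 0.367 CPM in stroked WT replicate 4. In untested comparisons between strains, every stroked mouse lay on 1 side of its control mean in one strain and on the other side in another. For Ighm the mean rose by 6.61 CPM in NSG and fell by 6.02 CPM in Rag2-/- mice. For Mzb1 it fell by 0.0522 CPM in NSG mice and rose by 0.0942 CPM in WT and by 0.0355 CPM in Rag2-/- mice, values near those of single counts.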

How the results depend on the processing

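Changes in the counts of members called are listed here, smaller ones not in full. Where no cause is given the cause was not tested. Without a filter, edgeR also called Mzb1 in WT mice after stroke, and Iglc2 and Mzb1 in delayed mice. In delayed against acute mice the fit without a filter called Iglc2 but no longer Cd79b (edgeR adjusted p = 0.0579). In WT mice after stroke, 1 rather than 3 members was called with a mean of at least 1 CPM required, which removes Iglc1 and Jchain from testing, and 1 with the cohort as a covariate; without single mice the count was 2 to 3. In delayed mice 1 of 4 calls was made at a mean of at least 1 CPM and 2 with the cohort as a covariate (4 without any 1 mouse). Stroked NSG against WT mice gave 1 rather than 2 calls at a mean of at least 1 CPM, with DESeq2, with the cohort as a covariate and when only the groups compared were fitted, and 1 to 2 without single mice. Delayed against acute mice gave 1 rather than 3 at a mean of at least 1 CPM, 0 when only the groups compared were fitted and 0 to 4 without single mice, with 0 genes of all called without acute replicate 1 or 2. Non-stroked NSG against WT mice gave 1 rather than 0 without a filter (Mzb1) and 1 with DESeq2 (Igkc). Without single mice the acute comparison gave 0 to 2 and stroke in NSG mice 0 to 2. The permutation test of stroked mice gave 1 rather than 2 with a pseudocount of 1, 1 by rank sums, 0 against Rag2-/- mice alone and 0 to 2 without single mice. All other counts of members stayed at 0. Igkc in untreated stroke was called under every alternative run, at 2.95 to 4.09 without single mice, 4.26 in the Imm2 cohort alone and 4.18 with the cohort as a covariate. Values that turned sign were those of Ighm in WT mice, at 0.011 with the cohort as a covariate and 0.12 in the Imm2 cohort alone, of Cd79a in WT mice, at -0.48 to 0.11 without single mice, and of Ighm in NSG mice, at -0.0028 to 0.44. Over all genes, 712 rather than 1244 were called in WT, 31 rather than 440 in acute, 722 rather than 2636 in delayed and 423 rather than 979 in delayed against acute mice with the cohort as a covariate. When only the groups compared were fitted, 21 were called in acute mice, 549 rather than 933 in NSG mice and 257 rather than 556 in stroked NSG against WT mice.

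With the replicate block, non-stroked Rag2-/- and NSG mice again had 0 members called against WT mice, with 7 and 318 genes called in all, beside 1 and 411 in the same mice without it. The deviations of same-numbered mice correlated at 0.0775 and 0.0826 for Rag2-/- and at -0.258, 0.108 and -0.135 for NSG mice, so the numbers were not taken to pair the mice.

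Depth limited Iglc1, Iglc2, Ms4a1 and Mzb1, which lay within a few counts of 0 in most libraries, and a library with 0 counts allows up to 0.149 CPM in the shallowest case. Groups held 3 to 5 mice, the delayed group came from 1 cohort, and bulk counts give no cell numbers.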
